A study of Mus musculus with 15 samples.

Results

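Fatty acid uptake and oxidation were followed in mouse oocytes through 10 genes named by symbol, *Cd36*, *Cpt1a*, *Cpt2*, *Acadvl*, *Acadl*, *Acadm*, *Hadha*, *Hadhb*, *Plin2* and *Plin3*, out of 55401 gene identifiers with counts. The genes were listed by name, with earlier results of these data known. All 10 passed the filter on low counts that 21009 genes passed. Each library was made from 6 oocytes of Kunming mice with SMART-Seq2, which primes full-length cDNA on poly(A) tails, and there were 15 libraries in 5 groups of 3. The study describes the oocytes of all groups as being at the germinal vesicle stage. IVV oocytes came from antral follicles that had grown in vivo. IVG oocytes came from preantral follicles grown in vitro without neurotrophin-4 (NT-4), and IVG-NT oocytes from follicles grown in the same medium with NT-4, a growth factor that binds the receptor TRKB. Follicles were kept for 10 days (labelled C_10d and NT_10d) or 6 days (C_6d and NT_6d). All cultures shared a medium with follicle-stimulating hormone, insulin, fetuin and bovine albumin. The mice that gave the follicles were 12 to 14 days old, and the sources used here also name older mice without tying an age to the IVV oocytes, which were not cultured. Each library pools oocytes, so differences between single oocytes were not measured.

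The oocyte and its follicle use fatty acids as fuel. Fatty acids enter the cell through carriers such as CD36 and are either stored as triglyceride in lipid droplets, which perilipins coat, or are coupled to carnitine by CPT1, carried into the mitochondrion and released there by CPT2. In the mitochondrial matrix acyl-CoA dehydrogenases open each round of beta-oxidation, with separate enzymes for very long, long and medium chains, and the trifunctional protein, made of HADHA and HADHB subunits, completes it for long chains. Beta-oxidation is known to be needed for meiotic maturation of mouse oocytes.

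The libraries held 5954262 to 55593251 counts, and 12 of 12 oocyte markers had counts in every library. The libraries fell into 2 kinds across the groups. In 9 of them a single ribosomal RNA gene took 12.5% to 37.9% of counts (rRNA-rich libraries, namely IVV replicate 3 and, in all 4 cultured groups, replicates 1 and 2). In the other 6 it took less than 1% (rRNA-poor libraries, namely IVV replicates 2 and 4 and the cultured replicates numbered 3). Replicates 1 and 2 of the day-6 IVG-NT group stood apart from all others, with 5954262 and 7125348 counts. Their Spearman correlation to each other was 0.06, over genes above a low limit on the counts summed in that pair. Results that use this group are therefore given with and without them. Without them the group holds only replicate 3, an rRNA-poor library, so only fold changes are read from that fit. Its counts of called genes are listed at the end, and no conclusion is drawn from them. PCR copies carry no molecular identifier here. Each SD is the spread between the libraries of a group. SEs and intervals rest on edgeR's estimate of the spread, which draws on all 15 libraries and on other genes. The study took the 3 samples of a group from 3 replicated experiments, without saying which libraries of different groups share one.

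Per kilobase of exon, *Cpt2* and *Cd36* had the highest means of the 10 transcripts in IVV oocytes and *Cpt1a* the lowest. In IVV oocytes the normalized counts per kilobase, in CPM (counts scaled to equal library size by TMM), averaged 21.5 ± 0.22 (SD, n = 3) for *Cpt2*, 13.8 ± 9.99 for *Cd36*, 7.60 ± 0.29 for *Hadha* and 7.21 ± 0.91 for *Acadm*. They averaged 4.93 ± 1.04 for *Acadl*, 2.63 ± 0.71 for *Acadvl*, 2.63 ± 0.58 for *Plin3*, 2.31 ± 0.84 for *Plin2*, 1.04 ± 0.13 for *Hadhb* and 0.23 ± 0.27 for *Cpt1a*. In this order each of *Acadm*, *Acadl*, *Plin2* and *Hadhb* lay above the next gene in all 3 IVV libraries without overlap, and the other neighbours overlapped. *Cpt2* ranked first or second in 15 of 15 libraries, *Cd36* in 8 of 15, and *Cpt1a* was last in 13 of 15. In day-6 IVG-NT oocytes *Cd36*, at a mean of 3.65 CPM per kilobase, stood below *Cpt2*, *Plin2*, *Acadm*, *Acadl* and *Hadha*. By its median percentile over libraries *Cpt2* stood at 90.5% of the 21009 genes, *Cd36* at 78.7% and *Cpt1a* at 22.2%. The order depends on the length used: with the longest APPRIS principal transcript in place of all exons, *Hadha* moved above *Cd36* in IVV, at 16.5 against 14.6 CPM per kilobase, while *Cpt2* stayed first at 21.6 and *Cpt1a* last at 0.40.

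**Figure D1:**
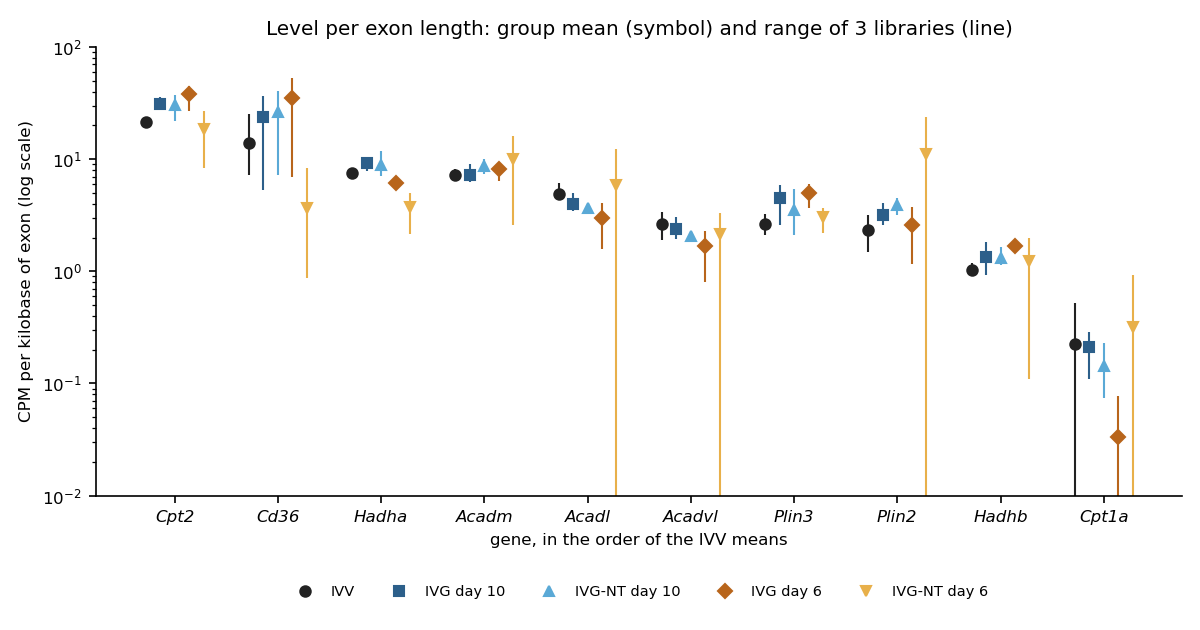
Level of each gene per kilobase of exon (CPM per kilobase, log scale) in the 5 groups. Symbols are group means and lines run from the lowest to the highest of 3 libraries, and lines that reach the bottom axis include a library with no count. The IVV means run from 21.5 for Cpt2 to 0.23 for Cpt1a.

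*Cd36* encodes the scavenger receptor and fatty acid translocase that takes up long-chain fatty acids. In IVV oocytes it was at 32.2, 90.9 and 25.9 normalized CPM in replicates 2, 3 and 4. In day-10 IVG oocytes it was at 131, 104 and 19.1 CPM in replicates 1, 2 and 3, and in day-10 IVG-NT oocytes at 110, 147 and 25.9 CPM. In day-6 IVG oocytes it was at 160, 190 and 25.0 CPM, and in day-6 IVG-NT oocytes at 6.32, 3.13 and 29.8 CPM. In 4 of the 5 groups the rRNA-rich libraries were the high ones and the rRNA-poor libraries the low ones, whatever the culture. Apart from the pair of day-6 IVG-NT libraries that stood apart, *Cd36* lay between 90.9 and 190 CPM in the 7 rRNA-rich libraries and between 19.1 and 32.2 CPM in the 6 rRNA-poor ones, with no overlap. Of all genes tested, 11.1% were likewise higher in all 7 than in all 6. *Cd36* was the only one of the 10 genes with that separation, and its log2 ratio of medians, 2.32, was exceeded by 4.49% of genes. The kind of library therefore has to be read beside every *Cd36* value.

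*Cd36* is also made by endothelial cells and macrophages, so the markers of other ovarian cells are given beside it. The summed level of 7 endothelial markers lay between 41.3 and 70.4 CPM in the same 7 rRNA-rich libraries, between 26.1 and 38.1 CPM in the 6 rRNA-poor ones, and at 21.9 and 18.3 CPM in day-6 IVG-NT replicates 1 and 2. It was higher in all 7 than in all 6 libraries, as were *Cd36* and 11.1% of all genes tested. Among these markers *Pecam1* had counts in 15 libraries, at a median of 24.9 CPM, *Tek* in 14, *Kdr* in 13, *Cdh5* in 3 and *Emcn* in 2 of 15. The summed level of 10 macrophage markers ran the other way, from 5.24 to 33.7 CPM in the 7 and from 35.0 to 66.5 CPM in the 6 libraries. Of these markers *C1qb* had the highest median, 20.3 CPM, and was counted in 14 of 15 libraries. *Csf1r* was counted in 12, *Cd68* in 10, *Ptprc* in 5 and *Adgre1* in 2 of 15. The 17 granulosa and cumulus cell markers summed to 722 to 1228 CPM in the 7 rRNA-rich and 350 to 797 CPM in the 6 rRNA-poor libraries, with *Serpine2* alone at a median of 595 CPM, *Fshr* counted in 13 libraries and *Amh* in 2 of 15. In day-6 IVG-NT replicates 1 and 2 the granulosa and cumulus markers summed to 285 and 1400.4 CPM, the lowest and the highest of the 15 libraries, and the macrophage markers to 59.6 and 5.05 CPM. The 10 theca and stroma markers summed to at most 65.6 CPM and the 5 blood markers to at most 38.0 CPM in any library. The part of such cells in the *Cd36* values was not tested, and in these pools fewer cells of a type and less RNA per cell cannot be told apart.

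**Figure D2:**
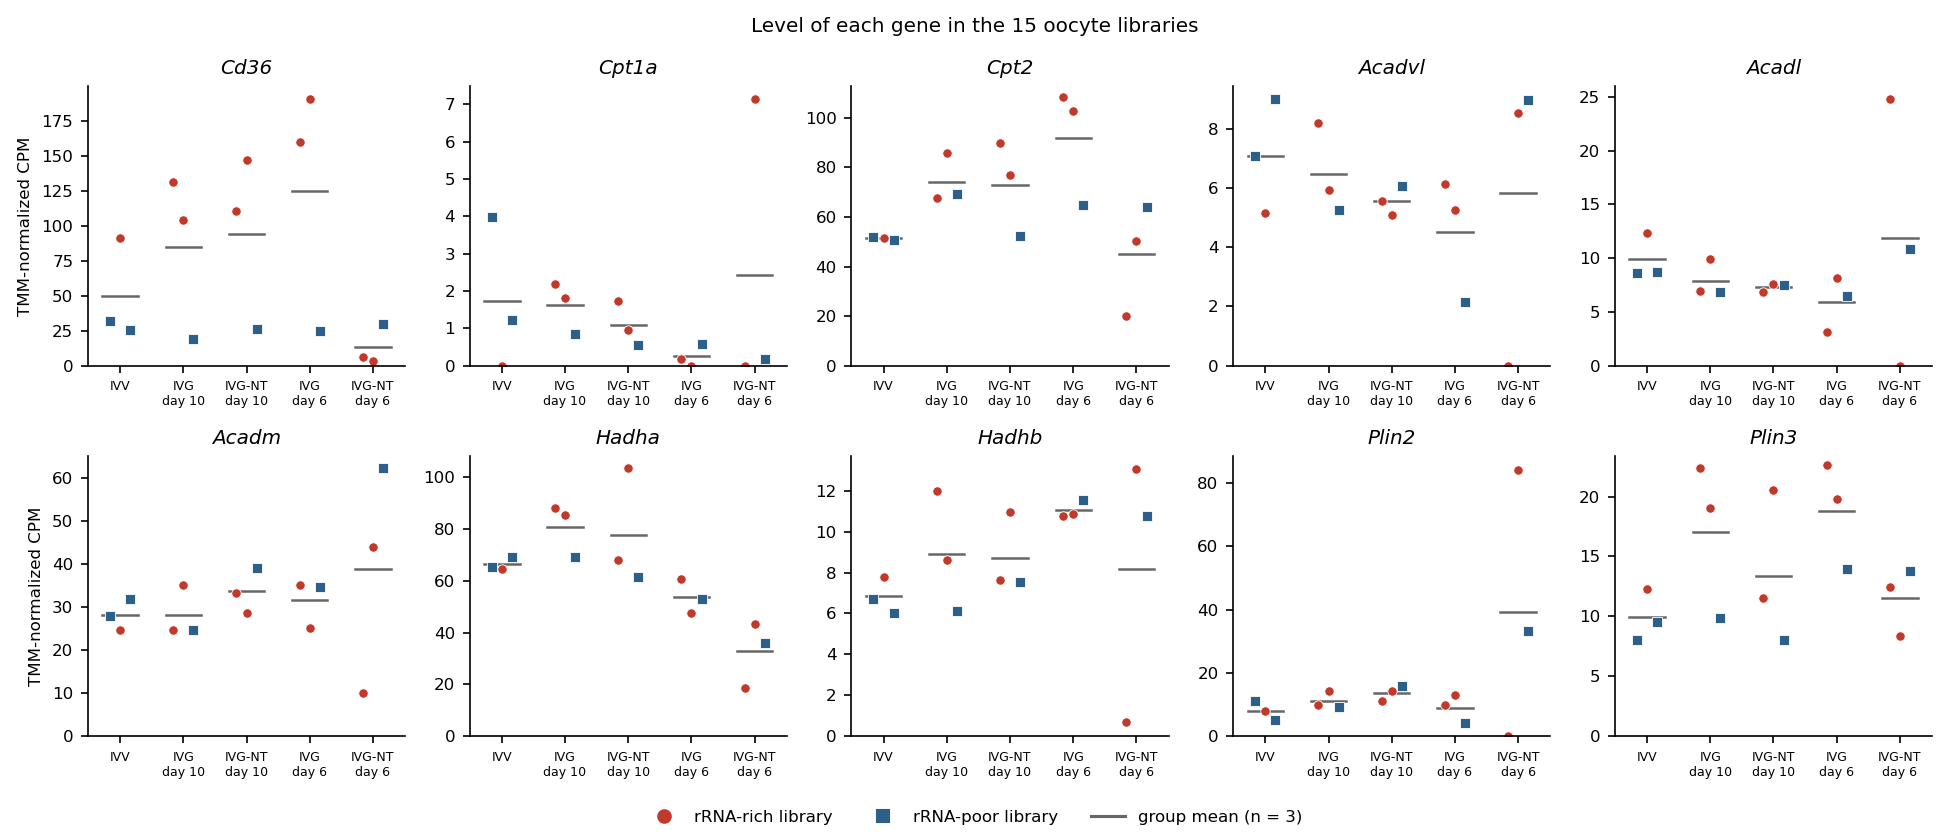
Normalized level (TMM-normalized CPM, y axis from 0) of the 10 genes in each library, by group, with replicates in label order from left to right. Circles are rRNA-rich and squares rRNA-poor libraries, and grey lines are group means of 3. For Cd36 the circles lie above the squares except in the day-6 IVG-NT group, where they are at 6.32 and 3.13 CPM.

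The carnitine shuttle was present as *Cpt2* with little *Cpt1a*. *Cpt2*, the inner-membrane enzyme that returns the acyl group from carnitine to CoA, was steady in IVV, at 51.9, 51.3 and 50.8 CPM in replicates 2, 3 and 4. It was at 67.4, 85.5 and 69.3 CPM in day-10 IVG and at 89.8, 77.1 and 52.1 CPM in day-10 IVG-NT oocytes. Each of these 6 libraries lay above the 3 IVV libraries, although the lowest exceeded the highest IVV value by very little. In day-6 oocytes it was at 108, 103 and 64.8 CPM in IVG and at 20.1, 50.5 and 64.0 CPM in IVG-NT oocytes, so the groups did not overlap there either.

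*Cpt1a*, the liver-type outer-membrane enzyme and rate-limiting step of entry into mitochondria, was at 3.98, 0 and 1.22 CPM in IVV. It was at 2.19, 1.81 and 0.84 CPM in day-10 IVG and 1.74, 0.95 and 0.56 CPM in day-10 IVG-NT oocytes. After 6 days it was at 0.18, 0 and 0.59 CPM in IVG and at 0, 7.14 and 0.20 CPM in IVG-NT oocytes, and the single high value came from 41 counts in one of the shallow libraries. *Cpt1a* thus had 0 counts in 3 of 15 libraries, and single libraries decide its group means. The muscle-type paralogue *Cpt1b* had no count in any library. *Cpt1c*, the neuronal paralogue, had at most 93 counts, where *Cpt1a* had at most 190. In IVV replicates 2, 3 and 4 *Cpt1c* was at 1.88, 1.15 and 1.89 CPM, beside 3.98, 0 and 1.22 CPM for *Cpt1a*.

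Of the 3 acyl-CoA dehydrogenases among the 10 genes, the medium-chain enzyme had the highest group mean per kilobase in all 5 groups. *Acadm* was at 27.96, 24.8 and 31.9 CPM in IVV, at 24.6, 35.1 and 24.8 CPM in day-10 IVG, and at 33.3, 28.7 and 39.1 CPM in day-10 IVG-NT oocytes, with overlap among the 3 groups. In day-6 oocytes it was at 35.3, 25.1 and 34.7 CPM in IVG and at 10.1, 44.0 and 62.5 CPM in IVG-NT. *Acadl*, the long-chain enzyme, was at 8.65, 12.3 and 8.72 CPM in IVV, and its day-10 IVG-NT values of 6.83, 7.61 and 7.48 CPM all lay below these. Its day-10 IVG values of 6.91, 9.96 and 6.88 CPM overlapped both groups. The day-6 values ran from 3.17 to 8.13 CPM in IVG and from 0 to 24.8 CPM in IVG-NT. *Acadvl*, the very-long-chain enzyme, ran from 5.15 to 8.98 CPM in IVV, 5.25 to 8.17 CPM in day-10 IVG and 5.08 to 6.08 CPM in day-10 IVG-NT oocytes. At day 6 it ran from 2.16 to 6.12 CPM in IVG and from 0 to 8.97 CPM in IVG-NT. Its exons share 1151 bases with exons of *Dvl2* on the opposite strand, which averaged 13.1 CPM, and since this library type does not mark strand the reads of the shared bases cannot be told apart.

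The subunits of the trifunctional protein were unequal in their transcripts. *Hadha*, the alpha subunit with the hydratase and hydroxyacyl-CoA dehydrogenase activities, was at 65.2, 64.5 and 69.2 CPM in IVV, at 87.9, 85.2 and 69.0 CPM in day-10 IVG and at 67.9, 104 and 61.3 CPM in day-10 IVG-NT oocytes. After 6 days it was at 60.8, 47.6 and 53.0 CPM in IVG and at 18.8, 43.3 and 36.0 CPM in IVG-NT, so the day-6 libraries of each culture were below all day-10 libraries of that culture, and those with NT-4 below those without. *Hadhb*, the beta subunit with the thiolase activity, was at 6.72, 7.76 and 6.02 CPM in IVV, at 12.0, 8.62 and 6.14 CPM in day-10 IVG, at 7.63, 11.0 and 7.55 CPM in day-10 IVG-NT, at 10.8, 10.9 and 11.6 CPM in day-6 IVG and at 0.72, 13.1 and 10.7 CPM in day-6 IVG-NT oocytes. Its groups overlapped in every comparison except for the day-6 IVG libraries, which were all above the IVV ones, a pair of groups that was not tested.

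Per exon length *Hadha* exceeded *Hadhb* in 15 of 15 libraries, by 2.51 to 19.6 times with a median of 6.28 times. With the longest principal transcripts the ratio was 1.69 to 13.3 times, with a median of 4.24 times. Within a library this ratio is free of library size. It was 6.28 to 8.69 in IVV, 5.55 to 8.48 in day-10 IVG and 6.14 to 7.14 in day-10 IVG-NT oocytes, against 3.31 to 4.27 in day-6 IVG oocytes, below every day-10 and IVV library. In day-6 IVG-NT oocytes it was 19.6, 2.51 and 2.53, where the first rests on 4 *Hadhb* counts. The ratios of IVG and IVG-NT at day 10 overlapped. These ratios were looked at after the values had been seen and carry no test.

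**Figure D3:**
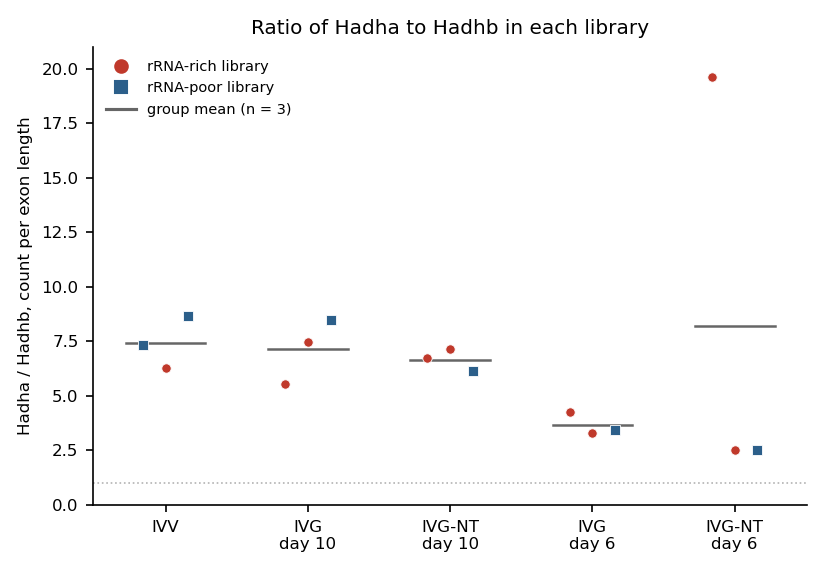
Ratio of Hadha to Hadhb counts per exon length in each library (y axis from 0, dotted line at 1), by group. Circles are rRNA-rich and squares rRNA-poor libraries, and grey lines are means of 3. The day-6 IVG libraries lie at 3.31 to 4.27, below the day-10 IVG libraries at 5.55 to 8.48, and the highest point, 19.6, rests on 4 Hadhb counts.

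*Hadha* and *Hadhb* are neighbours on chromosome 5 of GRCm38 and are read in opposite directions, *Hadha* from chr5:30118304-30155162 on the minus strand and *Hadhb* from chr5:30155248-30184593 on the plus strand (GENCODE vM21). Their annotated starts are parted by the 85 bases chr5:30155163-30155247, shown from the RefSeq promoter table (GRCm38.p6) on the plus strand, because these annotated genes of unequal transcript level meet there. The RefSeq start used for the *Hadha* promoter window lies inside the GENCODE gene and not at the edge of the gap. Capitals mark GGGCGG, a GC box, found 2 times with both strands searched. A copy was in the promoter windows of 8 of the 10 genes and in 35.7% of 32851 such windows, which run from 250 bases before to 50 after a start.

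Hadha-Hadhb gap: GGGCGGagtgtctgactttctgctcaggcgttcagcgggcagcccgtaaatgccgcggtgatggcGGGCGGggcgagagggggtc

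The gap had 69.4% G and C and 9 CG pairs, and held no CCAAT, which 37.4% of promoter windows hold on either strand.

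The perilipins coat lipid droplets. *Plin2*, found on droplets of most cells, was at 11.1, 8.004 and 5.24 CPM in IVV, at 9.77, 14.4 and 9.15 CPM in day-10 IVG and at 11.1, 14.2 and 15.9 CPM in day-10 IVG-NT oocytes. At day 6 it was at 9.86, 13.1 and 4.05 CPM in IVG and at 0, 84.1 and 33.3 CPM in IVG-NT oocytes, so a library without a single count and the highest value of the series stood in one group. *Plin3*, which moves from the cytosol onto new droplets, was at 8.0001, 12.3 and 9.55 CPM in IVV, at 22.4, 19.0 and 9.84 CPM in day-10 IVG and at 11.5, 20.6 and 7.996 CPM in day-10 IVG-NT oocytes. At day 6 it was at 22.6, 19.8 and 13.9 CPM in IVG and at 12.5, 8.35 and 13.8 CPM in IVG-NT oocytes. In both IVG groups and in day-10 IVG-NT oocytes the rRNA-poor library had the lowest *Plin3* value.

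Among the 10 genes the spread within a group was smallest for *Cpt2* in IVV, with a coefficient of variation of 1.01%. The median over the 10 genes was 21.5% in IVV, 24.7% in day-10 IVG, 24.3% in day-10 IVG-NT, 34.2% in day-6 IVG and 83.4% in day-6 IVG-NT oocytes. Over all genes tested the medians were 68.0%, 65.8%, 70.4%, 84.2% and 147%.

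The first question of the design was what growth in vitro changed. Against IVV, none of the 10 genes of fatty acid uptake and oxidation passed the test in day-10 IVG oocytes. A gene was called where its log2 fold change was beyond 1 and its unadjusted P under 0.05, the rule the study used, in edgeR's quasi-likelihood test over all 15 libraries. By this rule 0 of 10 genes were called, 0 had an unadjusted P under 0.05 and DESeq2 also called 0, where 2.76% of all genes tested were called by edgeR. The smallest P values belonged to *Plin3*, with a log2 fold change of 0.78 ± 0.87 (SE; edgeR adjusted p = 1), and *Cpt2*, at 0.53 ± 0.64 (edgeR adjusted p = 1). *Cpt2* was also the only one of the 10 whose IVG and IVV libraries did not overlap, where 11.9% of all genes did not. The 95% interval for *Cpt2* ran from −0.82 to 1.88, that for *Hadha* from −1.01 to 1.58 and that for *Acadm* from −1.60 to 1.60, while for *Cpt1a* it ran from −4.28 to 4.07, so a change of severalfold in *Cpt1a* was not detectable at this depth. With a Benjamini-Hochberg adjusted p under 0.05, 0% of the 21009 genes passed in edgeR, where 579 had an unadjusted P under 0.05, and 68 passed in DESeq2.

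Day-10 IVG-NT oocytes against the same IVV libraries gave 0 of 10 genes called, 0 with an unadjusted P under 0.05 and 0 called by DESeq2, where edgeR called 3.29% of all genes. *Cd36* had a log2 fold change of 0.93 ± 1.02 (SE; edgeR adjusted p = 1) and *Cpt2* of 0.51 ± 0.64 (edgeR adjusted p = 1). *Cpt2* was higher and *Acadl* lower in all 3 IVG-NT than in all 3 IVV libraries, 2 of 10 genes, where 11.6% of all genes did not overlap. The *Acadl* difference was −0.44 with a 95% interval from −3.20 to 2.33. By adjusted p 0% of all genes passed in edgeR, with 691 at an unadjusted P under 0.05, and 90 passed in DESeq2. In both comparisons the IVV group held 1 rRNA-rich library and each cultured group 2, and within the kinds *Cd36* was at 90.9 CPM in IVV against 104 to 147 CPM in the 4 cultured rRNA-rich libraries, and at 25.9 and 32.2 CPM against 19.1 and 25.9 CPM in the rRNA-poor ones.

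The second question was what NT-4 changed. At day 10 none of the 10 genes passed the test between IVG-NT and IVG oocytes: 0 were called, 0 had an unadjusted P under 0.05 and DESeq2 called 0, where edgeR called 1.24% of all genes. The smallest P values were those of *Plin3*, at a log2 fold change of −0.35 ± 0.87 (SE; edgeR adjusted p = 1), and *Acadm*, at 0.26 ± 0.76 (edgeR adjusted p = 1). In no gene of the 10 did the libraries separate, where 3.59% of all genes did. The intervals were −1.36 to 1.32 for *Cpt2*, −1.35 to 1.24 for *Hadha* and −1.98 to 2.29 for *Cd36*, so these data do not bound a change in *Cd36* to less than severalfold. By adjusted p 0% of all genes passed in edgeR, with 261 at an unadjusted P under 0.05, and 51 passed in DESeq2.

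At day 6 *Cd36* was lower in IVG-NT than in IVG oocytes, the single call among the 10 genes. Its mean was 13.1 ± 14.6 CPM (SD, n = 3) with NT-4 and 125 ± 88.0 CPM without, a log2 fold change of −3.25 ± 1.10 (SE; 95% interval −5.58 to −0.92; edgeR adjusted p = 0.381). The groups overlapped, and the difference was carried by the rRNA-rich libraries, at 6.32 and 3.13 CPM against 160 and 190 CPM. In the rRNA-poor libraries, 1 in each group, *Cd36* was at 29.8 CPM with NT-4 and 25.0 CPM without. The log2 fold change was −5.05 in rRNA-rich libraries alone and −4.72 without IVG-NT replicate 3. It was −1.97 without the pair of shallow IVG-NT libraries. That fit sets 1 rRNA-poor library with NT-4 against 3 IVG libraries, of which 1 is rRNA-poor. NT-4 and library kind cannot be told apart in it. Deviations of same-numbered libraries in both day-6 groups correlated at 0.14, 0.12 and 0.42, the last between the rRNA-poor libraries. A block on that number gave *Cd36* a value of −2.43, not called. The 1 gene of 10 compares with 11.6% of all genes called, so the share among the 10 was near the background. Over all genes 0% passed by adjusted p in edgeR, with 2430 at an unadjusted P under 0.05, and 654 passed in DESeq2.

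Of the other genes at day 6, *Cpt2*, *Hadha* and *Plin3* were lower in all 3 IVG-NT than in all 3 IVG libraries, where 8.45% of all genes did not overlap, and none was called. *Cpt2* had a log2 fold change of −1.03 ± 0.64 (SE; edgeR adjusted p = 0.525), which passed the call only without IVG-NT replicate 3, at −1.38. *Plin2* was at 39.1 ± 42.3 CPM with NT-4 against 8.995 ± 4.58 CPM without, a difference of 2.12 on the log2 scale with an interval from −0.75 to 4.99. *Plin2* was called in DESeq2, at 2.58, and without IVG-NT replicate 1, at 2.71, and *Cpt1a* in DESeq2, at 3.60. Without both shallow libraries, with 1 IVG-NT library left, *Plin2* stood at 1.98.

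The third question was how the genes moved from day 6 to day 10. In IVG oocytes 0 of 10 genes were called, 0 had an unadjusted P under 0.05 and DESeq2 called 0, where edgeR called 2.9% of all genes. *Cpt1a* and *Hadha* were higher in all 3 day-10 than in all 3 day-6 libraries, 2 of 10, where 7.42% of all genes did not overlap. *Cpt1a* averaged 1.62 ± 0.69 CPM at day 10 and 0.26 ± 0.30 CPM at day 6 (log2 fold change 2.61 ± 2.11, SE; edgeR adjusted p = 1), and *Hadha* 80.7 ± 10.2 CPM and 53.8 ± 6.65 CPM (0.59 ± 0.62, SE; edgeR adjusted p = 1). By adjusted p 0% of all genes passed in edgeR, with 609 at an unadjusted P under 0.05, and 109 passed in DESeq2.

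In IVG-NT oocytes *Cd36* was called as higher at day 10 than at day 6, at 94.3 ± 61.9 against 13.1 ± 14.6 CPM (SD, n = 3; log2 fold change 2.84 ± 1.08, SE; edgeR adjusted p = 0.357). This uses the same day-6 IVG-NT libraries as the NT-4 comparison at day 6. Without both shallow ones, which leaves 1 day-6 library, the value was 1.55. Without replicate 1 alone it was 2.51 and without replicate 2 alone 2.28, neither called. Leaving out day-10 IVG-NT replicate 2 gave 2.37, not called. With library kind as a covariate it was 1.95, not called. *Hadha* was higher in all 3 day-10 libraries, where 11% of all genes did not overlap, at 77.6 ± 22.7 against 32.7 ± 12.6 CPM, and missed the call at 1.25 ± 0.62 (SE; edgeR adjusted p = 0.412). It passed with library kind as a covariate, at 1.23, without day-6 IVG-NT replicate 2, at 1.42, and without replicate 3, at 1.32. The 1 called gene of 10 compares with 12.7% of all genes, and by adjusted p 0% passed in edgeR, with 2661 at an unadjusted P under 0.05, and 715 in DESeq2.

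The NT-4 difference itself was compared between the days. For *Cd36* the difference at day 10 minus that at day 6 was 3.40 ± 1.47 on the log2 scale (SE; edgeR adjusted p = 0.735), the single call of the 10, where 6.37% of all genes were called. With the replicate block it was 2.60 and with library kind as a covariate 2.50, neither called. Without both shallow libraries, with 1 day-6 IVG-NT library left, it was 2.11. Leaving out single libraries of the 4 in vitro groups gave 2.83 to 4.88. *Cpt1a* had the next smallest P, at −3.77 ± 2.90 (SE; edgeR adjusted p = 0.948), a value that rests on the 41 counts of day-6 IVG-NT replicate 2 and was 0.50 without that library. The *Cd36* call was lost without day-10 IVG replicate 3, day-10 IVG-NT replicate 1 or 2, day-6 IVG-NT replicate 1 or 2, and day-6 IVG replicate 1 or 2. By adjusted p 0% of all genes passed in edgeR, with 1339 at an unadjusted P under 0.05, and 165 passed in DESeq2.

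**Figure D4:**
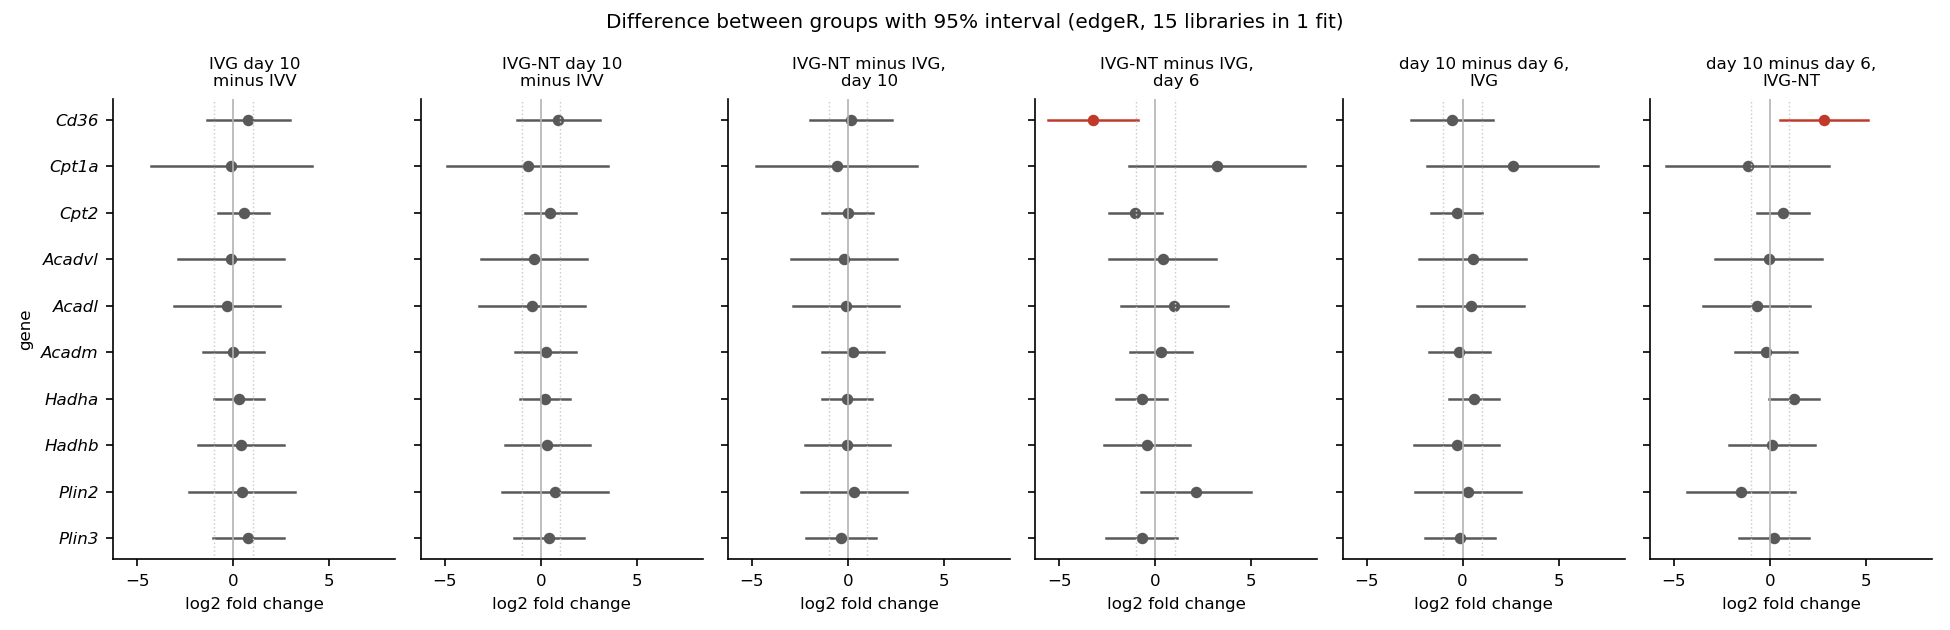
Log2 fold change of the 10 genes in 6 comparisons (points) with 95% intervals (lines) from 1 edgeR fit over 15 libraries. Dotted lines mark 1 and −1, and red marks the called gene, Cd36, at −3.25 for NT-4 at day 6 and at 2.84 for day 10 against day 6 with NT-4. The other intervals include 0.

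The rest of fatty acid metabolism was described with 7 lists of 114 other genes, of which 103 passed the filter. Against IVV 2 of the 103 were called in day-10 IVG oocytes and 2 in day-10 IVG-NT oocytes, and 1 was called between IVG-NT and IVG at day 10, where 2.76%, 3.29% and 1.24% of all genes were called, so the pathway held no more calls than the background. *Acads*, the short-chain acyl-CoA dehydrogenase, was at 33.7, 4.43 and 34.7 CPM in IVV, at 0, 0 and 0.12 CPM in day-10 IVG and at 0, 1.02 and 5.89 CPM in day-10 IVG-NT oocytes. It was lower in IVG than in IVV (log2 fold change −9.02 ± 3.09, SE; edgeR adjusted p = 1) and higher in IVG-NT than in IVG (5.63 ± 2.69, SE; edgeR adjusted p = 1). DESeq2 gave *Acads* no P in either comparison. In all 5 groups *Acads* was higher in the rRNA-poor than in the rRNA-rich libraries, the reverse of *Cd36*. With rRNA-rich libraries alone the first difference was −9.80, with a single IVV library, and the second 6.59, not called. The second was also not called with DESeq2 size factors or without day-10 IVG replicate 1 or 2 or day-10 IVG-NT replicate 2 or 3, at 3.45 to 5.99.

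*Dgat2*, which makes triglyceride from diacylglycerol, stepped down over the 3 groups without overlap. It was at 28.9, 59.1 and 32.0 CPM in IVV, at 22.6, 15.6 and 14.4 CPM in day-10 IVG and at 8.89, 5.14 and 9.12 CPM in day-10 IVG-NT oocytes. *Dgat2* was called between IVG-NT and IVV (log2 fold change −2.37 ± 0.83, SE; edgeR adjusted p = 1), and was not called between IVG and IVV (−1.19) or between IVG-NT and IVG (−1.19). The call was lost without day-10 IVG-NT replicate 2, at −2.15, and without the filter on low counts, at −2.39. In rRNA-rich libraries, with a single IVV library, the difference was −3.16, and under the replicate block it was −2.55. *Cidea*, a droplet protein of fat cells, had no count in IVV, and 44, 16 and 23 counts in day-10 IVG and 0, 11 and 12 in day-10 IVG-NT oocytes. Against a floor of 3 counts over the IVV group it was at least 25.3-fold higher in IVG and at least 8.23-fold higher in IVG-NT oocytes, and its highest level was 1.24 CPM. Among the alternatives, the replicate block cannot pair IVV with the cultures, and the rRNA-rich fit holds a single IVV library. The call in IVG was made in 7 of 13 alternatives and that in IVG-NT in 2 of 12. The first was lost without IVV replicate 2 or 4 and the second without any single IVV replicate or IVG-NT replicate 2 or 3, and both were lost in DESeq2, without the filter, under the replicate block and in rRNA-rich libraries.

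By list, fatty acid synthesis had 13 of 14 tested genes with a higher estimate in day-10 IVG than in IVV and a median log2 fold change of 0.84, and 11 of 14 with a median of 0.72 in IVG-NT. The regulators had 13 of 16 in both, with medians of 0.65 and 0.40, and mitochondrial beta-oxidation outside the 10 genes had 5 and 4 of 20, with medians of −0.57 and −0.87. Over all genes tested 8966 of 21009 were higher in IVG and 9079 in IVG-NT, with medians of −0.20 and −0.19. None of the synthesis genes or regulators was called. With DESeq2 size factors the medians over all genes moved to −0.39 and −0.36, synthesis had 13 and 10 of 14 higher and beta-oxidation 3 and 3 of 20. In rRNA-rich libraries alone beta-oxidation had 9 of 20 higher in both comparisons, with medians of −0.15 and −0.10, where 48.3% and 46.6% of all genes were higher, and with library kind as a covariate it had 6 of 20 in both, with medians of −0.28 and −0.37. Synthesis had 10 of 14 higher in both in rRNA-rich libraries, and 10 and 8 with library kind. The regulators had 11 and 8 of 16 higher in rRNA-rich libraries and 7 in both comparisons under the replicate block. IVV has a single rRNA-rich library, so all the rRNA-rich counts here rest on it. Same-numbered libraries of IVV and the cultures deviated in opposite directions, so the block cannot correct for pairing there. Uptake and activation had 5 of 18, the carnitine shuttle 2 of 5, peroxisomal beta-oxidation 7 of 14 and droplet and triglyceride turnover 9 of 16 genes with a higher estimate in IVG than in IVV.

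**Figure D5:**
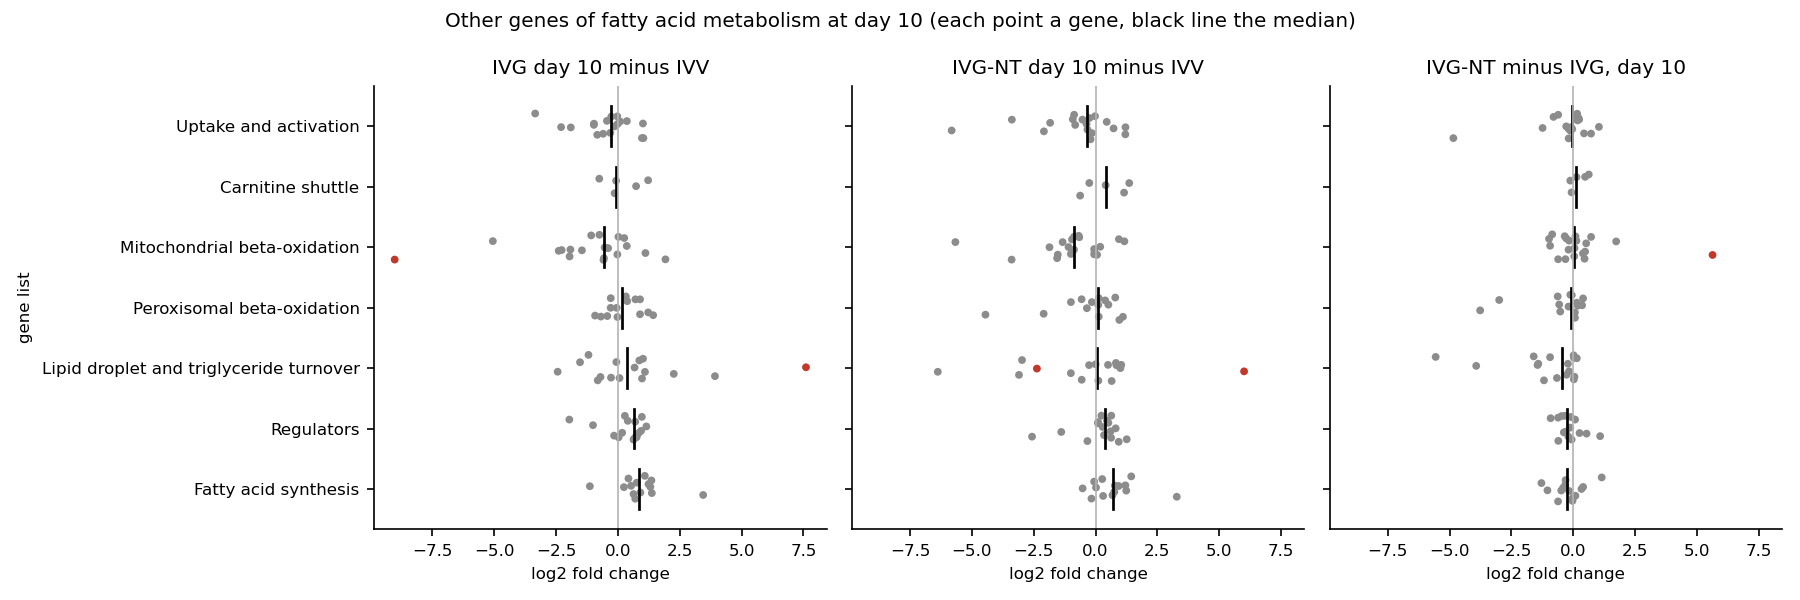
Log2 fold change (x axis) of the 103 other tested genes of fatty acid metabolism in the 3 day-10 comparisons, by list. Each point is a gene, red where called, and black lines are medians, which in the first panel run from −0.57 for mitochondrial beta-oxidation to 0.84 for fatty acid synthesis. Points far from 0 are genes with few or no counts in one group, whose fitted values are no bounds.

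At day 6, 9 of the 103 genes were called between IVG-NT and IVG, 6 higher and 3 lower, where 11.6% of all genes were called. The 3 higher ones with the smallest P were *Mgll*, monoglyceride lipase, the acyl-CoA synthetase *Slc27a3* and the peroxisomal reductase *Decr2*. In each of these the highest NT-4 level came from a shallow library: *Mgll* had 224, 16 and 4 counts against 0, 0 and 11, *Slc27a3* 164, 0 and 0 against none and *Decr2* 0, 13 and 5 against none. *Acad10* and *Slc27a1* were among the lower ones: *Acad10* had no count with NT-4 and 173, 0 and 14 without, and *Slc27a1* 0, 0 and 34 against 360, 7 and 75. From day 6 to day 10, 1 of the 103 was called in IVG oocytes (2.9% of all genes), *Decr2*, with 37, 65 and 8 counts at day 10 and none at day 6. In IVG-NT oocytes 11 were called, 4 higher and 7 lower, against 12.7% of all genes. *Fabp5*, a fatty acid binding protein, was at 50.2, 25.6 and 10.8 CPM at day 6 and 96.4, 53.7 and 356 CPM at day 10. It was called with all 15 libraries (log2 fold change 2.55 ± 1.01, SE, edgeR adjusted p = 0.357). Its call was lost in DESeq2, at 2.15, with DESeq2 size factors, at 2.15, under the replicate block, at 1.75, in rRNA-rich libraries, at 0.80, and without day-10 replicate 3, at 1.38, day-6 replicate 2, at 2.45, or day-6 replicate 3, at 2.15. *Elovl6*, a chain elongase, had at most 1 count a library at day 6 and 68, 83 and 56 at day 10, and *Acad10* had none and 18, 64 and 24. *Plin1*, *Mgll* and *Slc27a3* were lower at day 10, where *Plin1* had no count against 291, 0 and 15 at day 6. The interaction was called for 6 of the 103, against 6.37% of all genes, with *Acad10* called higher and *Slc27a3*, *Decr2* and *Plin1* lower by the smallest P. All of these comparisons use the shallow day-6 IVG-NT libraries except that of *Decr2* in IVG oocytes. Without both libraries the day-6 IVG-NT group holds 1 library, so no calls are read from that fit. With all 15 libraries the share of the 103 called was below the background in each of these comparisons. Of the calls named, those of *Mgll*, *Slc27a3* and *Plin1* were lost without day-6 IVG-NT replicate 1, that of *Decr2* at day 6 without IVG-NT replicate 2 or IVG replicate 3, that of *Slc27a1* without IVG-NT replicate 1 or 2 or IVG replicate 1, and that of *Acad10* at day 6 without IVG replicate 1. Between the days with NT-4 *Acad10* was lost without day-6 replicate 3. In the interaction *Acad10* was lost without day-6 IVG replicate 1, day-6 IVG-NT replicate 3 or day-10 IVG-NT replicate 2, and *Slc27a3* and *Plin1* also without day-10 IVG replicate 3.

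The promoters of the 10 genes were read for AGGTCA, the half-site of nuclear receptors such as PPARs, which were among the regulators described. In windows from 250 bases before to 50 after the RefSeq start (GRCm38.p6), 5 of the 10 held a copy on either strand, where 16.3% of 32851 windows of this length did. Each copy is shown because PPARs are known to act on genes of fatty acid oxidation, with up to 10 bases on each side, 5′ to 3′ on the strand that reads AGGTCA and with the motif in capitals.

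Cd36 (chr5:17836109-17836134, plus strand): tgaaaatctcAGGTCAtaaagtgcag
Cpt1a (chr19:3323197-3323222, minus strand): tgcggggaggAGGTCAgtaaggaaac
Acadvl (chr11:70015500-70015525, minus strand): ggatcaccctAGGTCAggtagaatac
Acadm (chr3:153944877-153944893, plus strand): cggagcccgaAGGTCAc
Plin2 (chr4:86670262-86670287, plus strand): tgtctgacttAGGTCAggggtcctga

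Counted from the RefSeq start, the motif lay at −228 in *Cd36*, −94 in *Cpt1a*, −87 in *Acadvl*, −249 in *Acadm* and −218 in *Plin2*. The *Cd36* window, chr5:17835847-17836146, lies well inside the GENCODE gene, whose minus-strand start is at 17888801. That of *Cpt1a*, chr19:3323051-3323350, also lies inside its gene, whose plus-strand start is at 3322334. Other starts of these genes were not searched. None of the 10 windows held 2 copies with 1 base between them, which 0.0396% of all windows hold. A match says only that these letters are there, and binding was not measured. Of the 5 genes with a copy, *Cd36* separated the kinds of library and the other four did not.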

How the data were processed

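The authors removed adaptors and reads with quality below 20 and aligned the rest to mm10 with HISAT2. How reads were counted, and the annotation release, are not given in the sources used here. The deposited values are raw counts per Ensembl gene, and every library held whole numbers with its own total. Groups and replicate numbers were those of the titles, where IVV starts at 2.

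The counts entered edgeR 4.0.16 under R 4.3.3 (filterByExpr, minimum count 10, TMM, quasi-likelihood test, 1 fit of 5 group means) and with DESeq2 1.42.0 beside it, and Benjamini-Hochberg adjustment ran over all 21009 genes tested. The test was checked on simulated data with the same spread for every gene and no library kinds. That check does not cover the spread of these libraries. Levels per length used all exons of GENCODE vM21, and 99.5% of identifiers had a symbol there. A library was called rRNA-rich above 5% of counts in its ribosomal gene. Alternatives were DESeq2, its size factors, no filter, only the groups compared, a replicate block, library kind, rRNA-rich libraries, each library left out, and, added after seeing the data, both shallow day-6 IVG-NT libraries left out.

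Per comparison, folds are named for called genes among the 10, or for the 2 with the smallest P if fewer than 2 were called. From the other lists at most 3 higher and 3 lower called genes are named. One gene that this rule names is not reported here. *Dgat2* values in further comparisons, the *Hadha* ratio, *Cpt1b*, *Cpt1c* and the GC box were chosen after their values were seen. The 10 genes and all lists were chosen with earlier results of these data known. The correlation of same-numbered libraries' deviations from their group means was 0.61 to 0.87 between the day-10 groups, 0.12 to 0.42 between the day-6 groups, and 0.29 to 0.71 between the days in IVG; replicate number follows library kind in these groups. Between the days in IVG-NT 1 pair was at 0.0993, and pairs with IVV were negative, so those were not taken as paired. The day-6 pairs were little closer than those between the days in IVG-NT. The replicate block was run for every comparison all the same.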

Additional observations from a re-analysis of the deposited data

Results flagged for a closer look

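The NT-4 difference in *Cd36* was unlike on the 2 days: the log2 difference between IVG-NT and IVG was 0.15 at day 10 and −3.25 at day 6, and the interaction was 3.40 (edgeR adjusted p = 0.735). The day-6 value came from IVG-NT replicates 1 and 2, at 6.32 and 3.13 CPM with 35 and 18 counts, against 104 to 190 CPM in the IVG and IVG-NT rRNA-rich libraries of the other 3 cultured groups. In the rRNA-poor libraries *Cd36* was higher with NT-4 on both days, at 25.9 against 19.1 CPM on day 10 and at 29.8 against 25.0 CPM on day 6, with 1 library a group. The summed endothelial markers were lowest in IVG-NT replicates 1 and 2 of day 6, at 21.9 and 18.3 CPM, beside 26.1 CPM in replicate 3. In the same replicates 1 and 2 the granulosa and cumulus markers summed to 285 and 1400.4 CPM and the macrophage markers to 59.6 and 5.05 CPM. The part of depth, library kind or other cells was not tested.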

How the results depend on the processing

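With DESeq2 the day-6 comparison called 3 of the 10 genes and 15 of the 103 other pathway genes. The number of all genes DESeq2 called at day 6 is not given here, so these counts cannot be set against a background. The same holds below wherever a count of the 10 or of pathway genes stands without the number of all genes called. Between IVG-NT and IVG at day 10 DESeq2 called 153 genes in all and 0 of the pathway. It called 1 pathway gene between day-10 IVG and IVV. With DESeq2 size factors in edgeR, day-10 IVG-NT against IVV called 1 pathway gene and NT-4 at day 10 called 0. Without the filter on low counts the called genes were 1637 for day-10 IVG and 1580 for day-10 IVG-NT against IVV, with 1 pathway gene each, 4022 for NT-4 at day 6 and 4250 between the days with NT-4, and 2 pathway genes were called between the days in IVG.

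With only the groups compared in the fit, 970 genes were called for day-10 IVG against IVV, 66 for NT-4 at day 10, 451 for NT-4 at day 6 and 706 between the days with NT-4. Pathway calls in these fits were 6 for day-10 IVG and 4 for day-10 IVG-NT against IVV, 0 for NT-4 at day 6, 2 between the days in IVG, 4 between the days with NT-4 and 3 in the interaction. *Cd36* was not called between the days with NT-4, leaving 0 of the 10.

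The replicate block changed the counts to 134 for NT-4 at day 10, 1476 at day 6, 1696 between the days with NT-4 and 853 in the interaction, and left 0 of the 10 genes called in the last 3. Under the block 5 pathway genes were called at day 6 and 3 between the days in IVG, and *Cd36* stood at 2.06 between the days with NT-4 and at 2.60 in the interaction. Library kind as a covariate gave 427 genes for NT-4 at day 10 and 1022 between the days in IVG, 15 pathway genes at day 6, 5 between the days in IVG and 10 in the interaction, where 0 of the 10 were called. It kept the day-6 *Cd36* call, at −2.31.

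In rRNA-rich libraries alone 69 genes were called for NT-4 at day 10, 4597 at day 6, 4918 between the days with NT-4 and 3221 in the interaction. Pathway calls were 0, 20, 27 and 13 in that order. Against IVV this setting left a single IVV library, so no calls are counted there. The fit without both shallow day-6 IVG-NT libraries leaves that group a single, rRNA-poor library. NT-4 or day and library kind cannot be told apart in it, and its spread comes from other groups. Its counts are listed next for completeness, and no conclusion is drawn from them. Without both shallow day-6 IVG-NT libraries 820 genes were called at day 6, 735 between the days with NT-4 and 553 in the interaction, with 5 and 4 pathway genes in the first and second, and 0 of the 10 in the last 2.

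Leaving out single libraries gave 212 to 1164 called genes for day-10 IVG and 276 to 1237 for day-10 IVG-NT against IVV, 149 to 287 for NT-4 at day 10, 1604 to 6312 at day 6, 346 to 897 between the days in IVG, 1507 to 6622 between the days with NT-4 and 1001 to 4817 in the interaction. Of the 10 genes it gave 1 to 2 at day 6, 0 to 2 between the days with NT-4, 0 to 1 in the interaction and 0 elsewhere. Pathway calls ran from 1 to 6, 1 to 3, 0 to 1, 7 to 36, 2 to 3, 8 to 40 and 3 to 28 in the same order. The *Cpt1a* interaction ran from −5.23 without day-6 IVG replicate 3 to 0.50, a reversed sign, without day-6 IVG-NT replicate 2. The day-6 *Cd36* call held without any single library, at −2.70 to −4.72. The causes of these shifts were not tested. Low counts limit *Cpt1a* everywhere. Totals of 5954262 and 7125348 counts limit day-6 IVG-NT replicates 1 and 2, and every mean or fold change that uses them.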
